A study of Mus musculus with 10 samples.

Results

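The 8 genes described here encode subunits of activator protein 1 (AP-1), the transcription factor assembled from JUN and FOS family proteins, together with the related stress factor Atf3. They are Jun, Junb, Jund, Fos, Fosb, Fosl1, Fosl2 and Atf3, and were found by gene symbol, 8 of the 27665 genes in the count table. The set was chosen by earlier knowledge of how these genes differed between the diets in the same libraries. Their difference between diets is therefore described without p-values. Neither it nor any call of a member supports anything on its own.

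The libraries were made from total RNA of freshly isolated pancreatic islets of male C57BL/6J mice, with no genetic change named in the labels. The mice started at 8 to 10 weeks of age and ate either a western diet or standard chow during 4 weeks, 5 mice per diet and 1 library per mouse. The series title places the diet within the early adaptation of beta cells. All 5 chow mice came from cage 3, whereas 4 western diet mice came from cage 4 and 1 from cage 2, so that diet and cage cannot be told apart.

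AP-1 proteins carry a basic DNA-contacting region next to a leucine zipper, through which they pair. JUN proteins can pair with one another or with FOS proteins, while FOS proteins need a JUN partner, and the pairs bind the TPA response element (TRE) or the related cyclic AMP response element (CRE). Most of these genes are immediate early genes, transcribed within minutes of a stimulus such as a growth factor, calcium entry, cyclic AMP or cell stress, and their mRNAs are short-lived. In islets, glucose and cAMP-raising agents are known inducers of Fos and Junb in beta cells, and Atf3 is a known stress-response gene there.

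Library depth was 1.65e+07 to 2.39e+07 gene-assigned reads, with 21037 to 22128 genes detected per western diet library and 21733 to 22889 per chow library. Of 15104 genes that passed the low-count filter, 1627 were called between the diets at an adjusted p below 0.05 by edgeR's quasi-likelihood test, 831 lower and 796 higher on western diet. The summed level of 10 beta cell markers was 242900 to 277800 CPM (counts scaled to a common library size) on western diet and 232300 to 268300 on chow, so the islet label held. Acinar markers, a sign of exocrine tissue carried over during isolation, summed to 936 to 6835 CPM on western diet and 781 to 3275 on chow.

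The proximal promoters of 5 of the 6 members with the highest level per length are shown. Jund, the other one, is left out, and its RefSeq start lies 1210 bases upstream of the deposited gene model. Atf3 is shown although its RefSeq start lies 34706 bases inside its gene model. Each is 150 bases ending at the base before the RefSeq transcription start, in GRCm38, written 5′ to 3′ on the gene's strand. Capitals mark the TRE-like TGACATCA and the MEF2-like TATTTTTA of Jun, and the CRE core TGACG or its reverse complement elsewhere.
Jun, chr4:95052223-95052372, minus strand: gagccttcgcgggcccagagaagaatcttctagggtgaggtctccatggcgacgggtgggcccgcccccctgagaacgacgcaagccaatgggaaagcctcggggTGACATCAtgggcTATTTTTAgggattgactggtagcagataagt
Junb, chr8:84978749-84978898, minus strand: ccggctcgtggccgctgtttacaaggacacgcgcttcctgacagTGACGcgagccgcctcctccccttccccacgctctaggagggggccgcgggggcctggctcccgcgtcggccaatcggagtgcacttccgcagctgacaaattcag
Fos, chr12:85473740-85473889, plus strand: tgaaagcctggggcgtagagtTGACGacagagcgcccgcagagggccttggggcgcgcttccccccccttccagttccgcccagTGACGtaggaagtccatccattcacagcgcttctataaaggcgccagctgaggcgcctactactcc
Fosb, chr7:19310046-19310195, minus strand: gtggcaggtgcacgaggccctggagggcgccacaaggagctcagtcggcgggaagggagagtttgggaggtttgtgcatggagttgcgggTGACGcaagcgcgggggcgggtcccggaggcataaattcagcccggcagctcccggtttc
Atf3, chr1:191183334-191183483, minus strand: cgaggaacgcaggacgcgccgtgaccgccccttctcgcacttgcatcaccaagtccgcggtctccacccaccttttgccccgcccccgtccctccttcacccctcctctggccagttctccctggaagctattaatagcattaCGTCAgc

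RefSeq promoter windows of 300 bases, 250 before and 50 after the start, were at hand for 7 members, all but Fosl1. The core TGACG, searched on both strands, lay in 4 of the 7 (Junb, Fos, Fosb and Atf3) and in 20.8% of all 32851 windows of that length. In Fos it occurred at positions -129 and -66 from the start, in Junb at -106, in Fosb at -60 and in Atf3 at -7. The TRE-like TGACATCA occurred in Jun alone among them, at -45, and in 3.62% of all windows. The MEF2-like TATTTTTA stood just downstream of it in Jun, at -32, and in 2.72% of all windows. The full TRE, written TGANTCA, was in 0 of 7 and in 7.81% of all windows, and the full CRE TGACGTCA, which contains TGACG, in 0 of 7 and 1.79%. The CArG box, the site of serum response factor, was in 0 of 7 and in 1.63%. Sites more than 250 bases before the start, for any of these motifs, were not searched, so these counts do not cover them. These matches describe letters only. The windows of Jund, Fosl2 and Atf3 lie away from the start of the deposited gene model: the RefSeq start is upstream of it for Jund, 671 bases inside it for Fosl2 and 34706 bases inside it for Atf3. Reads were counted per gene, so transcripts from separate starts were not distinguished.

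All 8 genes passed the low-count filter, and every one was lower on western diet. Their log2 fold changes, western diet over chow, ranged from -1.20 for Atf3 to -0.47 for Fos, with a median of -0.87 against 0.0050 over all genes tested. By the edgeR threshold 7 of the 8 were called lower, where 10.8% of all genes were called in either direction and 5.5% were called lower. In 7 of the 8 the mouse with the highest western diet level was below the lowest chow mouse, which held in that direction for 4.42% of all genes tested. Fosl2 was the exception in both counts. Because these values chose the set, nothing is read from either count. The median over the 831 genes called lower was -0.38. In a bulk islet library, fewer cells expressing a gene and less of its RNA per cell cannot be told apart.

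**Figure D1:**
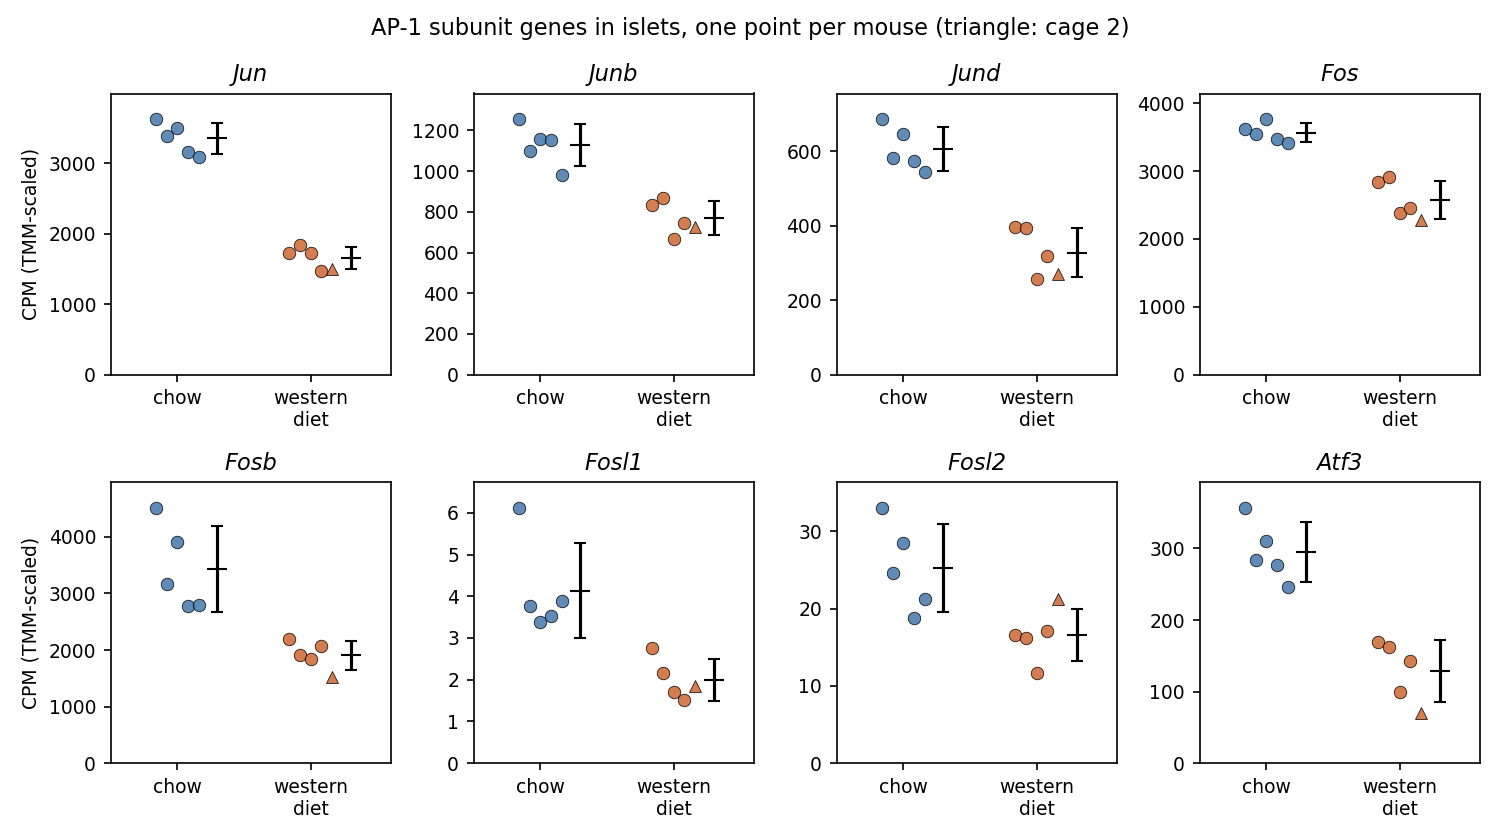
Level of each AP-1 gene in CPM after TMM scaling (vertical axis, from 0) in every chow and western diet mouse; points are single mice, bars the mean ± SD of 5, and the triangle is the western diet mouse of cage 2. The diets overlap for Fosl2 alone.

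Among the JUN genes, Jun encodes c-Jun, the archetypal AP-1 subunit and the main substrate of the JNK kinases. It lies on chromosome 4 at 95049034 to 95052222, minus strand, as a gene of 1 exon. Jun stood at 1734, 1843, 1474 and 1734 CPM in western diet mice 1, 2, 4 and 5 of cage 4 and at 1498 in mouse 5 of cage 2. In chow mice 1 to 5 it stood at 3630, 3385, 3505, 3156 and 3097 CPM. The diets were far apart, with no western diet mouse near the lowest chow mouse. The means were 1656 ± 162 and 3355 ± 227 CPM (SD, n = 5 each), a log2 fold change of -1.02 ± 0.06 (SE), which left the western diet level at 49.4% of chow. The scatter within each diet was small, with a coefficient of variation of 9.80% and 6.76%. An antisense gene, Junos, overlaps Jun but held 216 reads over the 10 libraries against 487190 for Jun.

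Junb encodes JunB, which transactivates more weakly than c-Jun and can oppose it. Its gene spans 84974484 to 84978718 of chromosome 8, minus strand. Its levels were 835, 869, 745 and 666 CPM in western diet mice 1, 2, 4 and 5 of cage 4 and 728 in the mouse of cage 2, against 1256, 1098, 1160, 1152 and 979 in chow mice 1 to 5. The groups were separate, although western diet mouse 2 and chow mouse 5 were close to each other. The means, 769 ± 82.4 and 1129 ± 101 CPM (n = 5 each), gave a log2 fold change of -0.55 ± 0.07, or 68.1% of the chow level. This was the smallest difference among the JUN genes. Prdx2, on the other strand, overlaps Junb. It held 18571 reads against 184489 for Junb, and whether strand was used in counting is not stated.

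Jund encodes JunD, the family member that is commonly expressed in resting cells and is less of an immediate early gene. The gene runs on chromosome 8 from 70698949 to 70700616, plus strand, with 1 exon. It measured 398, 395, 320 and 257 CPM in western diet mice 1, 2, 4 and 5 of cage 4, 270 in the cage 2 mouse, and 687, 581, 648, 573 and 544 in chow mice 1 to 5. Every western diet mouse was below every chow mouse, and within the western diet the mice split into a higher pair and lower ones. The means were 328 ± 66.8 and 606 ± 58.7 CPM (n = 5 each), with a log2 fold change of -0.89 ± 0.14. Its coefficient of variation was 20.4% on western diet and 9.68% on chow. The antisense gene Gm11175 overlaps Jund and was not analysed here.

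Among the FOS genes, Fos encodes c-Fos, the classical immediate early subunit. It lies on chromosome 12 at 85473890 to 85477273, plus strand, with no overlapping gene in the annotation. In western diet mice 1, 2, 4 and 5 of cage 4 it measured 2837, 2907, 2463 and 2379 CPM and in the cage 2 mouse 2278. Chow mice 1 to 5 had 3627, 3552, 3767, 3466 and 3418 CPM. These chow values were tight, with a coefficient of variation of 3.87%, and all lay above the western diet. The means of 2573 ± 282 and 3566 ± 138 CPM (n = 5 each) gave a log2 fold change of -0.47 ± 0.06, the smallest of the 8, with 72.2% of the chow level kept. Fos ranked 11th of 15104 genes by mean CPM, Fosb 14th and Jun 16th. These ranks are not corrected for gene length, and per length Jun was above Fosb on both diets.

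Fosb encodes FosB and, by splicing, the truncated and long-lived deltaFosB. Counting per gene does not separate these forms. It lies on chromosome 7 at 19302696 to 19310051, minus strand. Western diet mice 1, 2, 4 and 5 of cage 4 had 2193, 1918, 2063 and 1842 CPM and the cage 2 mouse 1525, against 4518, 3162, 3903, 2770 and 2799 in chow mice 1 to 5. The chow mice spread widely, with mice 1 and 3 highest, and their coefficient of variation was 22.2% against 13.3% on western diet. The means were 1908 ± 253 and 3430 ± 761 CPM (n = 5 each), a log2 fold change of -0.85 ± 0.16. Without chow mouse 1 it was -0.73.

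Fosl1 encodes Fra-1, a FOS protein that lacks the transactivation domain of c-Fos and is known mainly from epithelial and tumour cells. The locus is on chromosome 19, 5447703 to 5455945, plus strand. It was near the lower end of what these libraries measured, at 2.77, 2.16, 1.50 and 1.70 CPM in western diet mice 1, 2, 4 and 5 of cage 4, 1.84 in the cage 2 mouse, and 6.13, 3.78, 3.37, 3.52 and 3.90 in chow mice 1 to 5. The groups did not overlap, but chow mouse 1 stood apart from the other chow mice. The log2 fold change was -1.05 ± 0.22 with all mice and -0.87 without that one. Only 28 to 59 reads per western diet library and 59 to 116 per chow library stand behind these values, and counting error alone would give a coefficient of variation of 15.9% and 11.1%. Ccdc85b overlaps it on the opposite strand with 5402 reads, against 601 for Fosl1, so its level is uncertain.

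Fosl2 encodes Fra-2, a FOS relative induced later and more lastingly than c-Fos in many cells. The locus is on chromosome 5, 32135801 to 32157842, plus strand. It measured 16.5, 16.2, 17.1 and 11.7 CPM in western diet mice 1, 2, 4 and 5 of cage 4 and 21.2 in the cage 2 mouse, and 33.1, 24.6, 28.5, 18.8 and 21.3 in chow mice 1 to 5. The diets overlapped, because the cage 2 mouse was above chow mouse 4 and almost level with chow mouse 5. The means were 16.6 ± 3.39 and 25.2 ± 5.69 CPM (n = 5 each), a log2 fold change of -0.60 ± 0.18. Without the cage 2 mouse the log2 fold change was -0.71, and without chow mouse 4 it was -0.69. In either case the diets no longer overlapped and Fosl2 was called as well, as it also was by DESeq2 and after a filter at a mean of 5 CPM. Because the diet difference chose the set, nothing is read from these calls.

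Atf3 encodes a CREB family protein that pairs with JUN proteins, acts mostly as a repressor when paired with itself, and is induced by the integrated stress response and JNK. Its gene model covers 191170296 to 191218039 of chromosome 1, minus strand. Western diet mice 1, 2, 4 and 5 of cage 4 had 169, 163, 142 and 99.7 CPM and the cage 2 mouse 70.0, and chow mice 1 to 5 had 357, 284, 311, 277 and 246 CPM. The lowest chow mouse was well above the highest western diet mouse. With means of 129 ± 42.7 and 295 ± 41.7 CPM (n = 5 each), Atf3 had the largest fold change of the set, -1.20 ± 0.25 on the log2 scale, 43.6% of chow. It was also the gene whose spread exceeded that of genes of like abundance the most: its biological coefficient of variation from edgeR was 26.7%, against 9.19% on the fitted trend. Without western diet mouse 5 of cage 4 the log2 fold change was -1.12, and without chow mouse 1 it was -1.13, and in those fits it was not called. Without the cage 2 mouse it was -1.04.

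**Figure D2:**
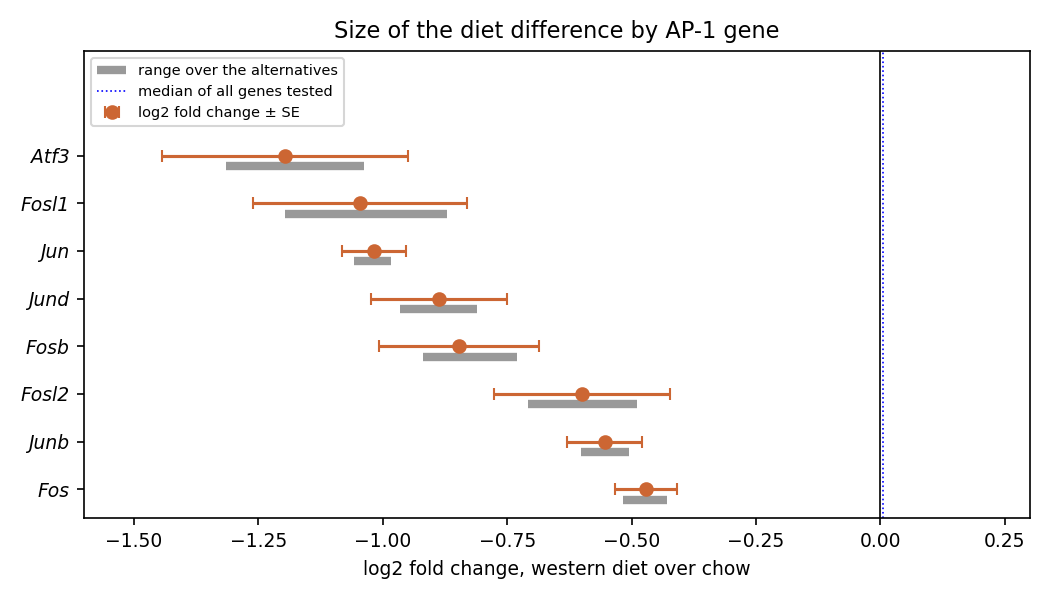
Log2 fold change, western diet over chow, for each AP-1 gene (horizontal axis; points ± SE from edgeR, 5 mice per diet), with grey bars for the range over the alternative analyses and a dotted line at the median of all genes tested. All points and bars lie below 0, from -1.20 for Atf3 to -0.47 for Fos.

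The authors' deposited table gave the same sizes for these genes: its log2 fold changes were -1.02 for Jun, -0.55 for Junb, -0.89 for Jund, -0.47 for Fos, -0.85 for Fosb, -1.05 for Fosl1, -0.60 for Fosl2 and -1.20 for Atf3. Both sets of values come from the same counts and the same contrast, so their likeness is no independent check. Among the genes tested Atf3 ranked 87th from the lowest log2 fold change, Fosl1 144th, Jun 157th, Jund 234th and Fosb 266th, and Fosl2, Junb and Fos ranked 657th, 769th and 1050th. Together the 8 genes made up 0.733% ± 0.0743 of a western diet library's counts and 1.246% ± 0.133 of a chow library's (n = 5 each).

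Levels of separate genes can be compared only per length, here as RPKM, reads scaled for gene length and library size. On chow, Fos led with 1516 ± 58.6 RPKM, followed by Jun with 1052 ± 71.1, Fosb with 549.5 ± 122, Junb with 491 ± 44.1, Jund with 364 ± 35.2 and Atf3 with 137 ± 19.3. Fosb and Junb, neighbours in that order, differed by less than the spread of Fosb. On western diet, Fos at 1094 ± 120 RPKM and Jun at 519 ± 50.9 again led, but Junb at 334 ± 35.8 and Fosb at 306 ± 40.5 had changed places, within their spread. Jund followed at 197 ± 40.0 and Atf3 at 59.8 ± 19.8 RPKM. Fosl2 at 1.71 ± 0.350 and Fosl1 at 1.17 ± 0.291 RPKM were lowest on western diet, and at 2.61 ± 0.588 and 2.42 ± 0.662 on chow, where they did not differ beyond their spread.

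The sum over the 8 genes was 2512 ± 275 RPKM on western diet and 4114 ± 331 on chow, and its make-up differed too. FOS family mRNA was 55.8% ± 0.757 of the sum on western diet and 50.3% ± 0.674 on chow. JUN family mRNA was 41.8% ± 1.10 and 46.4% ± 0.626, in ranges of 40.3% to 43.2% and 45.6% to 47.2% that did not overlap. Jun itself took 20.7% ± 1.65 on western diet and 25.6% ± 0.503 on chow. Fos took the opposite course with 43.5% ± 0.437 and 37.0% ± 1.83. Atf3 took 2.34% ± 0.586 and 3.32% ± 0.217, again without overlap. Jund took 7.77% ± 0.815 and 8.83% ± 0.175, in ranges of 6.57% to 8.57% and 8.62% to 9.08% that came close without overlap. The shares of Junb, Fosb, Fosl1 and Fosl2 overlapped between the diets.

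Put as a ratio of RPKM within each mouse, Jun over Fos was 0.476 ± 0.0380 on western diet, with a range of 0.441 to 0.538, and 0.693 ± 0.0285 on chow, with a range of 0.668 to 0.738. Jun over Junb was 1.56 ± 0.179 (1.43 to 1.88) and 2.15 ± 0.121 (1.98 to 2.28). In both ratios every western diet mouse was below every chow mouse. Of 5 ratios computed the other 3 overlapped: Jun over Jund was 2.28 to 3.53 on western diet and 2.77 to 3.05 on chow, Fosb over Fos 0.2485 to 0.316 and 0.301 to 0.469, and Atf3 over Jun 0.0692 to 0.1445 and 0.118 to 0.146. Such ratios show unequal differences between genes of one library, and since they come from the contrast that chose the set they are given as a description.

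**Figure D3:**
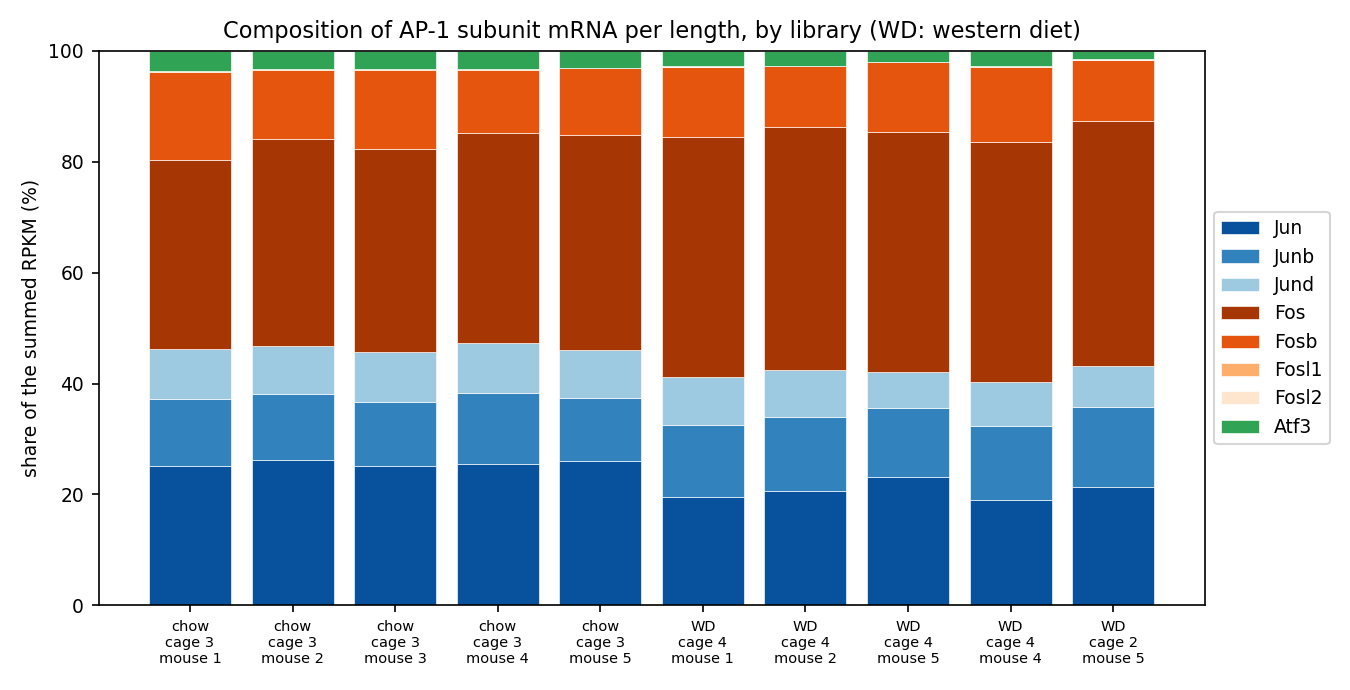
Share of each AP-1 gene in the summed RPKM of the 8 (vertical axis, %) for each library, chow on the left and western diet (WD) on the right; blues are JUN genes, oranges FOS genes and green is Atf3. The Fos band is wider in each western diet library (43.2% to 44.1%) than in each chow library (34.0% to 38.8%).

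How the genes varied from mouse to mouse within a diet did not enter the choice of the set. For this, each gene's log2 CPM was taken relative to the mean of its own diet, over all 10 mice. All 28 pairs of members had a Pearson r above 0, from 0.071 to 0.93 with a median of 0.58 (Spearman median 0.51), and 19 exceeded 0.5. For each pair, r was also taken without the 2 mice farthest from the median of 1 of its genes, the one named first in the opening list. Then 25 of the 28 were above 0. Mice extreme only in the other gene stayed in. For comparison, the median r of a member with all 10700 genes of at least 5 CPM lay between -0.035 and 0.0061. Both genes of a pair are read from the same libraries, with their depth and cell make-up, and pairs share genes, so these are descriptions over 10 mice.

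The tightest pair was Jund with Fos, at r = 0.93 (rho 0.93), 0.91 to 0.96 when each mouse was left out and 0.77 without the 2 farthest. Next were Junb with Jund at 0.90 (rho 0.88) and Jund with Atf3 at 0.89 (rho 0.98). Jund was the fourth best of all genes for Fos, and Fos the sixth best for Jund. For Junb, Jund ranked 7th, and for Atf3 it ranked 27th. The best partner of Jun was Fos at rank 103, that of Fosb was Atf3 at rank 183 and that of Fosl1 was Jund at rank 434. The values of Jun moved with single mice. Without western diet mouse 5 of cage 4, Jun reached 0.89 with Jund, 0.89 with Fos and 0.86 with Junb. Without mouse 2 of that cage it fell to 0.45, 0.60 and 0.42 with them. Fosl2 had the lowest values, with an r of 0.071 with Jun, 0.077 with Atf3, 0.13 with Fos, 0.38 with Jund, 0.40 with Fosl1, 0.47 with Fosb and 0.47 with Junb, the last ranking 1356th among all genes. These values turned on single mice, in both directions. Without the western diet mouse of cage 2, Fosl2 reached 0.90 with Fosb, 0.82 with Atf3, 0.75 with Jund and 0.66 with Junb. It then reached 0.56 with Fos and 0.37 with Jun. With Fosl1 the highest value, 0.53, came without chow mouse 3. Without western diet mouse 5 of cage 4, Fosl2 fell to 0.22 with Junb, 0.075 with Jund, -0.10 with Fos and -0.12 with Atf3. Without chow mouse 1 it fell to 0.19 with Fosb, 0.031 with Fosl1 and -0.16 with Jun.

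The mice behind this pattern can be named. Chow mouse 1 was above its diet's mean in 8 of 8 genes, by 0.27 on average on the log2 scale. Western diet mouse 1 of cage 4 was above in 8 of 8, by 0.22, and mouse 2 of that cage in 7, by 0.17. Chow mouse 5 was above in 0 of 8, with an average of -0.16, and western diet mouse 5 of cage 4 and the cage 2 mouse averaged -0.19 and -0.18. In the cage 2 mouse Atf3 deviated by -0.80 while Fosl2 deviated by 0.37, the widest split within a library.

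**Figure D4:**
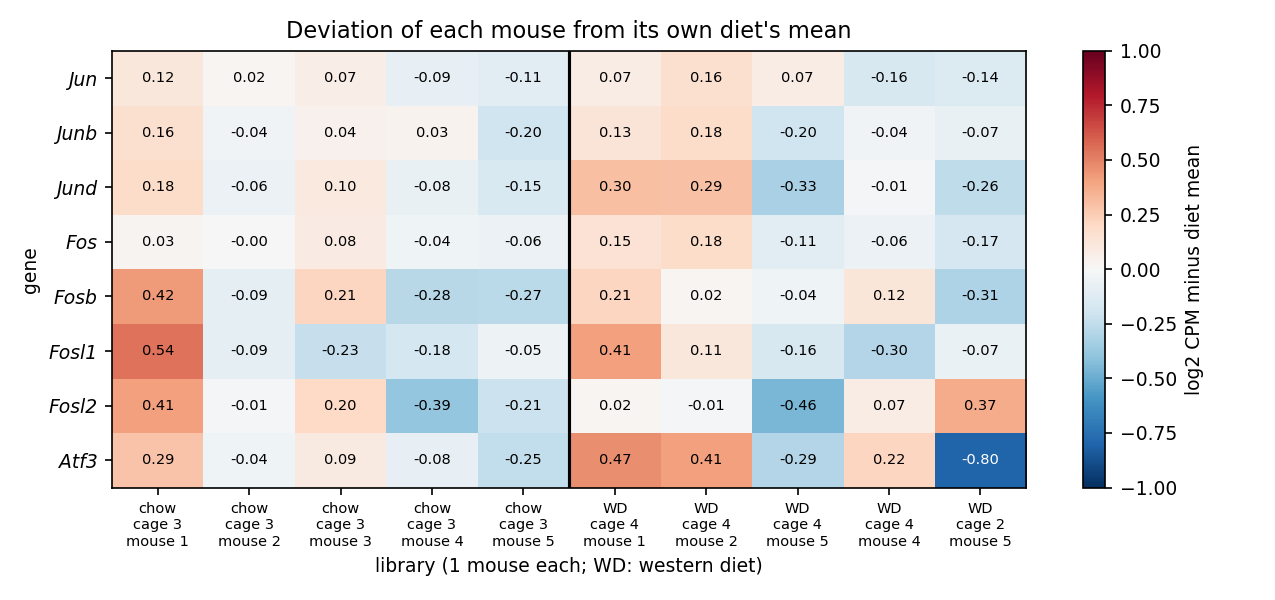
Deviation of each AP-1 gene (rows) in each library (columns, 1 mouse each) from the mean of its diet, as log2 CPM, in colour and number. Whole columns tend to take 1 colour, as in chow mouse 1 and in western diet mice 1 and 2 of cage 4, and Fosl2 departs in the cage 2 mouse.

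The same libraries ordered the other immediate early genes in a like way. The mean deviation of those 31 genes was 0.15 in chow mouse 1, -0.15 in chow mouse 5, 0.18 and 0.12 in western diet mice 1 and 2 of cage 4, -0.15 in mouse 5 of that cage and -0.25 in the cage 2 mouse. In mouse 4 of each diet the other immediate early genes averaged 0.11 on western diet and -0.010 on chow, against -0.019 and -0.14 for the AP-1 genes. Acinar markers summed to 936, 1620, 4254 and 6835 CPM in western diet mice 1, 2, 4 and 5 of cage 4, to 1112 in the cage 2 mouse, and to 781, 3068, 2013, 3275 and 2090 in chow mice 1 to 5. In each diet the lowest sum was in the mouse with the highest AP-1 average. On western diet the highest sum was in the mouse with the lowest AP-1 average, -0.19, and the cage 2 mouse, at -0.18, had a low sum. The part of acinar RNA in these values was not tested.

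The 3 genes that tracked each member most closely across mice, among 10699 others, included no other AP-1 member. For Atf3 they were Csrnp1 (r = 0.99), an immediate early nuclear protein, Klf2 (0.96), a Kruppel-like factor, and Mafk (0.95), a small MAF protein of the bZIP class. For Jund they were Stx3 (0.97), a syntaxin of granule exocytosis, Cebpb (0.95), another bZIP factor, and Rfc1 (0.95). For Fos they were Vamp3 (0.96), Aftph (0.96) and Sertad2 (0.93), the first a vesicle SNARE. For Junb they were Ndrg1 (0.95), Zfp36l2 (0.92), an mRNA decay factor, and Stard5 (0.91).

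For Fosb the closest were Herpud1 (0.97), a component of endoplasmic reticulum-associated degradation, Cep78 (0.95) and Ptpn23 (0.94). For Jun they were Pkmyt1 (0.93), Zfp991 (0.90) and Eif1a (0.90). For Fosl2 they were Jmjd1c (0.95), Naa60 (0.94) and Btbd6 (0.93), and for Fosl1 Npc1 (0.93), Mul1 (0.93) and Rps4x (0.92). Each is the top of a search over 10699 genes with 10 mice. Of these 24 neighbours 7 were themselves called between the diets, where 10.8% of all genes were: Ndrg1, Zfp36l2, Sertad2, Jmjd1c, Klf2 and Mafk lower and Npc1 higher. Neighbours were searched only among genes of at least 5 CPM, so 10.8% is not the share of that pool. With the fit restricted to a mean of at least 5 CPM, 1633 of 10698 genes were called.

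The genes around AP-1 were taken as 6 lists, put together with earlier results of these libraries known, so their counts are a description and are read against the 5.5% of all genes called lower. Of 33 partners and relatives of the bZIP class, 29 were tested, 3 fell and 1 rose, and the median log2 fold change was -0.010. Ddit3, which encodes the stress factor CHOP, fell from 117 ± 36.9 CPM on chow to 45.7 ± 6.96 on western diet (log2 fold change -1.36 ± 0.23, edgeR adjusted p = 0.00966). Mafk fell by 0.49 ± 0.10 (adjusted p = 0.012). Atf7, which pairs with JUN proteins, fell by 0.30 ± 0.07 (adjusted p = 0.0105), and its adjusted p was 0.0623 with the mouse number as a replicate block. Creb3 rose by 0.23 ± 0.07 (adjusted p = 0.0404), a call that 8 of the alternative analyses did not make, with an adjusted p of up to 0.136. The 4 relatives not tested were Batf, Batf2, Batf3 and Creb5.

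Of 33 kinases and scaffolds of the MAP kinase pathways that switch on JUN and FOS proteins, all tested, 1 fell and 0 rose, with a median of -0.020. This count is near the share over all genes. The one was Braf, a kinase of the ERK pathway, which went from 163 ± 11.4 CPM in chow mice to 137 ± 7.63 (log2 fold change -0.24 ± 0.06, adjusted p = 0.00958). Its diets overlapped. An mRNA level says nothing of kinase activity.

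Of 30 regulators of AP-1 gene transcription, mRNA decay or protein turnover, 5 fell and 0 rose, with a median of -0.015. Srf, the serum response factor that drives Fos transcription, fell from 102 ± 17.8 to 60.8 ± 5.81 CPM (log2 fold change -0.75 ± 0.11, adjusted p = 0.0023). Zfp36, which encodes tristetraprolin and speeds the decay of AU-rich mRNAs such as that of Fos, fell by 0.75 ± 0.09 (adjusted p = 6.31e-04), and its relative Zfp36l2 fell by 0.37 ± 0.07 (adjusted p = 0.00347). Both are themselves rapidly induced genes. Rps6ka5, the nuclear kinase MSK1, fell by 0.59 ± 0.12 (adjusted p = 0.00558) and Ep300, a coactivator acetylase, by 0.19 ± 0.05 (adjusted p = 0.0192). The Ep300 call was lost with the replicate block and without western diet mouse 2 of cage 4, with an adjusted p of up to 0.0835. The ternary complex factors Elk1, Elk3 and Elk4 and the ubiquitin ligase genes Fbxw7, Cop1 and Itch did not pass, with log2 fold changes of 0.056, 0.034, -0.099, 0.15, 0.12 and 0.18.

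Textbook AP-1 target genes, most known from other tissues, were mixed. Of 55 on the list 53 were in the table and 41 were tested, of which 7 fell and 2 rose, with a median of -0.15. Itga2, an integrin of collagen adhesion, fell from 7.56 ± 1.86 to 2.497 ± 0.466 CPM (log2 fold change -1.60 ± 0.18, adjusted p = 5.43e-05). Odc1, the rate-limiting enzyme of polyamine synthesis, fell by 0.47 ± 0.06 (adjusted p = 2.27e-04), S100a10 by 0.51 ± 0.09 (adjusted p = 0.00169) and Hbegf, an EGF receptor ligand, by 0.70 ± 0.12 (adjusted p = 0.0018). The 2 that rose were Ccnd1, cyclin D1, by 0.24 ± 0.06 (adjusted p = 0.0133), and Cdkn1a, the cell cycle inhibitor p21, by 0.67 ± 0.18 (adjusted p = 0.0452). The Cdkn1a call was lost in 11 of 17 alternative analyses, among them 9 of the 10 that left out a mouse, with an adjusted p of up to 0.111. The Ccnd1 call was lost with the replicate block alone, at an adjusted p of 0.083. Myc, also an AP-1 target, did not pass, with 16.2 CPM in western diet mice against 16.4 in chow mice and an adjusted p of 0.97.

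Other immediate early genes mostly fell with the AP-1 subunits. Of 31, all tested, 18 fell and 0 rose, 20 were lower with diets that did not overlap (4.42% of all genes), and the median was -0.64. Egr1, a zinc finger factor, went from 2693 ± 171 CPM on chow to 1684 ± 118 on western diet (log2 fold change -0.68 ± 0.06, adjusted p = 1.84e-06). Dusp1, a phosphatase that switches off MAP kinases, fell by 0.67 ± 0.06 (adjusted p = 7.49e-06), Ier2 by 0.59 ± 0.06 (adjusted p = 2.66e-05) and Rhob by 0.85 ± 0.08 (adjusted p = 2.84e-05). The list was not uniform: Nr4a2, Ier5 and Rgs2 did not pass, with log2 fold changes of 0.082, -0.041 and 0.43.

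Heat shock chaperones, which report protein stress and are often induced together with immediate early genes, were divided. Of 17, 6 fell and 1 rose. Hspa1a and Hspa1b, near-identical copies between which reads may be split, fell by 3.05 ± 0.19 and 3.16 ± 0.24 (adjusted p = 8.28e-05 and 3.02e-04). Dnajb1, a co-chaperone, fell by 1.77 ± 0.10 (adjusted p = 2.14e-06) and Dnajb4 by 0.72 ± 0.07 (adjusted p = 3.82e-05). Hspa4l rose by 0.57 ± 0.10 (adjusted p = 0.00644).

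**Figure D5:**
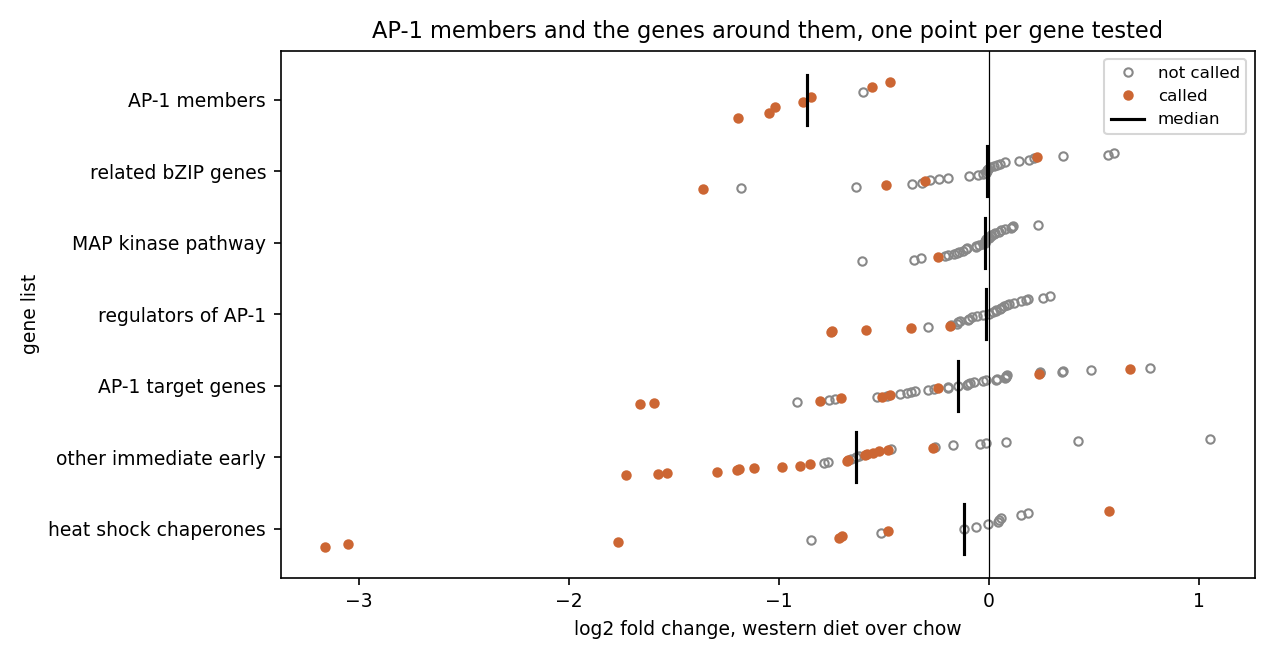
Log2 fold change, western diet over chow (horizontal axis), of the AP-1 members and of every tested gene of the 6 lists, 1 point per gene; filled points were called by edgeR and bars are medians. The members (-0.87) and the other immediate early genes (-0.64) have the lowest medians, and the MAP kinase list sits at -0.020. The members were chosen with this contrast known and the lists with earlier results known, so the order is a description.

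Markers of other cell types were set beside these differences, since AP-1 genes are expressed in all of them. In each of 8 marker lists the summed levels of the diets overlapped, and no marker was at 0 in all libraries. Some sums were dominated by few genes, as the duct sum by Krt7, at 235 CPM on western diet and 225 on chow. Overlap of the sums therefore does not show that the cell make-up was alike. Endothelial markers summed to 419 to 484 CPM on western diet and 480 to 537 on chow, duct markers to 298 to 325 and 297 to 327, macrophage and leukocyte markers to 71.5 to 123 and 89.3 to 105, and fibroblast markers to 122 to 156 and 124 to 241. Acinar markers had 0 of 12 called, Schwann cell markers 0 of 3, and other endocrine markers 1 of 9, Ttr, which was higher (log2 fold change 0.20). Duct markers had 3 of 8 called lower, namely Krt19 (log2 fold change -2.64, adjusted p = 7.37e-04), Muc1 (-1.01, adjusted p = 0.0305) and Slc4a4 (-0.35, adjusted p = 0.0313). Krt19 and Muc1 were at low levels, 0.571 ± 0.307 and 1.51 ± 0.585 CPM on western diet and 3.58 ± 1.87 and 2.99 ± 1.16 on chow. Endothelial markers had 1 of 10, Kdr (-0.28), fibroblast and stellate markers 1 of 8, Pdgfrb (-0.44), and macrophage and leukocyte markers 1 of 9, C1qa (-0.51), all lower. C1qb and C1qc, which encode the other chains of C1q, did not pass, at 0.11 and 0.16. Of 10 beta cell markers 2 were called lower, Slc2a2 (-0.54) and Slc30a8 (-0.27), and 2 higher, G6pc2 (0.47) and Iapp (0.19). The calls of Muc1, Slc4a4, Iapp and Ttr were each lost in 5 to 8 of the 17 alternative analyses. The part of these cells in the AP-1 differences was not tested.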

How the data were processed

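Gene counts per library were deposited by the authors in 1 table for all 10 mice, with FPKM values and the authors' log2 fold changes beside them, per the file headers. The submitters' processing notes name STAR 2.5, HTSeq 2, DESeq2 and the builds mm10 and GRCm38. No strand setting is stated. The libraries were made with a NEBNext Ultra kit, per the labels' protocols. Another 10 columns of normalized values per sample were not used.

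Counts were scaled by TMM and filtered by filterByExpr (minimum count 10), and western diet was compared with chow by edgeR 4.0.16 quasi-likelihood tests (robust) in R 4.3.3. Genes were called at a Benjamini-Hochberg adjusted p below 0.05 over 15104 genes. The labels name separate mice, so p-values measure the spread between mice of a diet. All chow mice came from the same cage and most western diet mice from another, so this spread is mostly between cage mates. It hardly measures how far cages differ. CPM had 0.5 added before log2. RPKM used the deposited gene lengths. The procedure was tested on simulated data. Alternatives were RLE and upper quartile scaling, no filter, a mean of at least 5 CPM, DESeq2 1.42.0, limma-voom (limma 3.58.1), a replicate block and leaving out each mouse. No set tests were run.

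The members and gene lists were chosen with earlier results of these data known. Named were the 8 members, the 4 called genes of smallest p per list (mean of at least 1 CPM), all genes of counts of 5 or fewer, and 3 neighbours per member. Other genes, among them unchanged members of a list and cell type markers, were chosen after their values were seen. Of 278 list entries, 274 matched by symbol, 2 through RefSeq synonyms and 2 did not match. Promoter sequences are RefSeq's for GRCm38.p6.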

Additional observations from a re-analysis of the deposited data

Results flagged for a closer look

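In 132 groups of 5 mice of one diet, covering genes named here, a gap test at the 95% level (Dixon) singled out 11 in which 1 mouse stood apart, where chance gives about 1 in 20 groups. This rate cannot be read against chance, because the groups share mice and the neighbour genes were picked for varying with a member across these mice. One case concerns a member: Fosl1 in chow mouse 1 was at 6.13 CPM, with the next chow mouse at 3.90. Among neighbours, chow mouse 1 was highest for Mul1, at 58.0 CPM with the next at 51.8, and for Rps4x, at 242 CPM with the next at 230, both picked for following Fosl1. The western diet mouse of cage 2 was lowest for Herpud1, at 383 CPM with the next at 488, and for Cep78, at 15.3 CPM with the next at 18.3, both picked for following Fosb. Among list genes, that mouse was highest for Rps6ka5, at 8.16 CPM with the next at 6.18. Chow mouse 5 was lowest for Zfp36l2, also a Junb neighbour, at 103 CPM with the next at 119, and for Rhob, at 408 CPM with the next at 441. Among markers, chow mouse 5 was highest for Muc1, at 4.997 CPM with the next at 2.85, chow mouse 4 for Slc4a4, at 11.7 CPM with the next at 10.8, and chow mouse 1 for Ttr, at 1274 CPM with the next at 1079.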

How the results depend on the processing

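None of 135 alternative values of the members' log2 fold changes reversed or moved by more than the spread between mice. Members called were 7 of 8 in the main analysis, and the exceptions, Fosl2 and Atf3, are given with those genes. Over all genes 1627 were called, 1948 by DESeq2, 841 with the mouse number as a replicate block, and 938 to 1813 when 1 mouse was left out: 938 without chow mouse 1, 1050 without chow mouse 3, 985 and 1055 without western diet mice 4 and 5 of cage 4. Mouse numbers do not pair the samples: same-numbered mice of the diets had correlations of 0.02, 0.01, 0.07, 0.12 and -0.13, and cages differ. The cause of the lower count under the block was not tested. The MAP kinase list had 2 called genes at a mean of at least 5 CPM and 1 to 2 when 1 mouse was left out. Of the list genes named with a call, 5 lost it somewhere: Cdkn1a in 11 of 17 alternatives, Creb3 in 8, Ep300 in 2, and Atf7 and Ccnd1 in 1 each. Of the markers called, Slc4a4 lost it in 8, Ttr in 7, and Muc1 and Iapp in 5 each. Depth limits Fosl1 alone among the members. Diet and cage cannot be told apart in any of these analyses.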
